A study of Mus musculus with 6 samples.

Results

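The 39 genes described here mark the 2 cell types that line the third ventricle at the level of the arcuate hypothalamus: 14 genes of tanycytes and 25 genes of multiciliated ependymal cells. Their probe sets are all those to which the array annotation gives 1 of these symbols and no other, a rule that uses no measured value. All 39 were on the array, as 70 of 45037 probe sets and as 39 of 18193 named genes. RNA came from arcuate microdissections of 2-week-old mice whose strain was mixed from C57Bl/6J, FVB/N and 129, in both groups. The groups were 3 control arrays, with genotype given only as Ctrl, and 3 POMCDicerKO arrays, from mice in which Dicer, the enzyme that cuts microRNA precursors, is deleted in Pomc-expressing cells. The design text calls the 3 samples of each group independent. The sources used here do not name the Cre driver line or the alleles of the controls, nor do they say whether a sample pooled several animals, so p-values measure the spread between these samples only.

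Tanycytes are elongated glial cells on the floor and lower walls of the third ventricle. They send processes into the arcuate nucleus and median eminence, take part in moving hormones and nutrients between blood, cerebrospinal fluid and hypothalamus, and include cells that can divide after birth. Ependymal cells higher on the wall carry tufts of motile cilia that drive the cerebrospinal fluid, and their genes are switched on by the forkhead factor Foxj1 and by factors of the RFX family, which bind a DNA site called the X-box. Pomc neurons lie beside this wall but are neither of these cell types, so the comparison asks how the neighbouring ventricular lining read in tissue whose Pomc cells lacked Dicer. Bulk arrays cannot tell fewer cells of a type, or less ventricular wall in a dissection, from less RNA per cell.

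The values are log2 expression after RMA, and differences are POMCDicerKO minus control on that log2 scale, with 3 arrays per group and limma's standard errors and 95% intervals. Each gene is described by its main probe set, the one with the highest mean over the 6 arrays. Of the 39 main probe sets, 34 had a mean of at least 6, against 11742 of all 18193. The 8 genes taken as defining markers all had a mean above 6. They were Rax, Gpr50, Col23a1 and Vim from the tanycyte list, and Foxj1, Ccdc153, Tmem212 and Rarres2 from the ciliated list. Array medians lay between 6.02 and 6.05 and Pearson r between arrays, across probe sets, between 0.994 and 0.997. The arrays also stood apart in transcripts of other tissue. Over 11 meningeal genes the mean log2 level was 7.94 and 8.02 on controls 1 and 2 and 6.22 to 6.80 on the other 4 arrays, control 3 included. Over 10 myelin genes it was 11.24 on POMCDicerKO 1 and 10.33 to 10.85 elsewhere.

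The promoter sequences are shown because a short sequence was frequent in the promoters of the ciliated genes. Its part in the members' order of arrays was not tested. The RefSeq promoter table (build GRCm38.p6, 250 bases before to 50 bases after each start) held 31 of the 39 members, 12 tanycyte and 19 ciliated. The RFX half-site GTTGCC, searched on both strands, was found in 12 of 19 ciliated promoter sets (63.2%), in 0 of 12 tanycyte ones (Vim among them) and in 14.1% of the 27025 genes in the table. Among other motile cilia genes it was found in 15 of 28 (53.6%). It was 1 of 8 patterns searched, beside 3 longer X-box forms, the forkhead pattern TGTTTAC, the SOX pattern ATTGTT and the homeobox patterns TAATTA and TAATTG, and was singled out after the counts were seen. The following upstream stretches, written 5′ to 3′ on the gene's strand, show the half-site (GTTGCC, or GGCAAC on the other strand) in capitals.
Ccdc153: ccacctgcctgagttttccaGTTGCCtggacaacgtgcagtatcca
Dynlrb2: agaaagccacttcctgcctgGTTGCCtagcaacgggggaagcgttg
Enkur: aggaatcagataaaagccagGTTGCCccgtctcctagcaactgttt
Iqca: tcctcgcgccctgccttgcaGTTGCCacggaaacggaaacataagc
Mlf1: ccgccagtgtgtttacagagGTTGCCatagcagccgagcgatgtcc
Rfx2: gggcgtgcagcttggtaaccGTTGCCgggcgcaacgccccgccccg
Tekt1: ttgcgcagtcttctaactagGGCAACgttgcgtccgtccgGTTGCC

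These stretches lie at chr9:44240505-44240550 (plus strand) for Ccdc153, chr8:116504944-116504989 (plus) for Dynlrb2, chr2:21205374-21205419 (minus) for Enkur, chr1:90153511-90153556 (minus) for Iqca, chr3:67373972-67374017 (plus) for Mlf1, chr17:56831099-56831144 (minus) for Rfx2 and chr11:72361892-72361937 (minus) for Tekt1. The first base of the match stood 152 bases before the start in Ccdc153, 51 in Dynlrb2, 34 in Enkur, 100 in Iqca, 105 in Mlf1, 116 in Rfx2 and 35 in Tekt1. The other ciliated members with a match were Hydin, Kif9, Rfx3, Spag6 and Spef2. Rfx2, itself an RFX factor, was among the genes that carry the site. The degenerate full X-box, whose arms can overlap the half-site, was found in 4 of 19 ciliated members (Hydin, Kif9, Enkur and Iqca), in 0 of 12 tanycyte members and in 2.49% of all genes in the table. The forkhead pattern TGTTTAC was found in 2 of 19 ciliated members (Ak7 and Mlf1), in 1 of 12 tanycyte members (Fgf10) and in 4.05% of genes. The 250 upstream bases of Enkur (chr2:21205366-21205615, minus strand) and of Vim (chr2:13574061-13574310, plus strand) are set side by side. Enkur is a ciliated gene with the site, and Vim, from the tanycyte list, is without it.
Enkur: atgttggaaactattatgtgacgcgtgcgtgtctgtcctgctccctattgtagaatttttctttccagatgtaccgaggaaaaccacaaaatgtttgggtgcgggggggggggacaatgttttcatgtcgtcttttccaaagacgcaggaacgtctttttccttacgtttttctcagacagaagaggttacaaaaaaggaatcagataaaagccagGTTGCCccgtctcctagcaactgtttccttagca
Vim: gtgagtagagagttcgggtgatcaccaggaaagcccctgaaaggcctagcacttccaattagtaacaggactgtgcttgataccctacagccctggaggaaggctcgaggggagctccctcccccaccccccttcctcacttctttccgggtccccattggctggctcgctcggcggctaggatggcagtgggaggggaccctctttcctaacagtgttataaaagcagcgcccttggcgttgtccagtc

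A match of letters is a description of the promoter and does not show binding, and the 8 members with no promoter in the table (Rax, Rspo3, Foxj1, Rarres2, Rsph1, Rsph4a, Tppp3 and Cd24a) were not searched.

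No member probe set passed limma's threshold. Of the 70 member probe sets, 0 had an adjusted p under 0.05, as had 0 of all 45037 (0.0%). At an unadjusted p under 0.05 there was 1 of 70 (Adm, higher), against 2.44% of all probe sets and 1.24% of them in the higher direction, and in 0 of 70 did the groups not overlap, against 6.36% of all probe sets. The ciliated genes had slightly lower means in POMCDicerKO: 23 of 25 were lower, with a median difference of -0.106. The tanycyte genes were lower in 10 of 14, with a median of -0.088. Over all named genes 55.1% were lower, with a median of -0.01, and among those with a mean of at least 6, as most members had, 59.5% were lower. The ciliated count turned with single arrays left out, as described next.

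**Figure D1:**
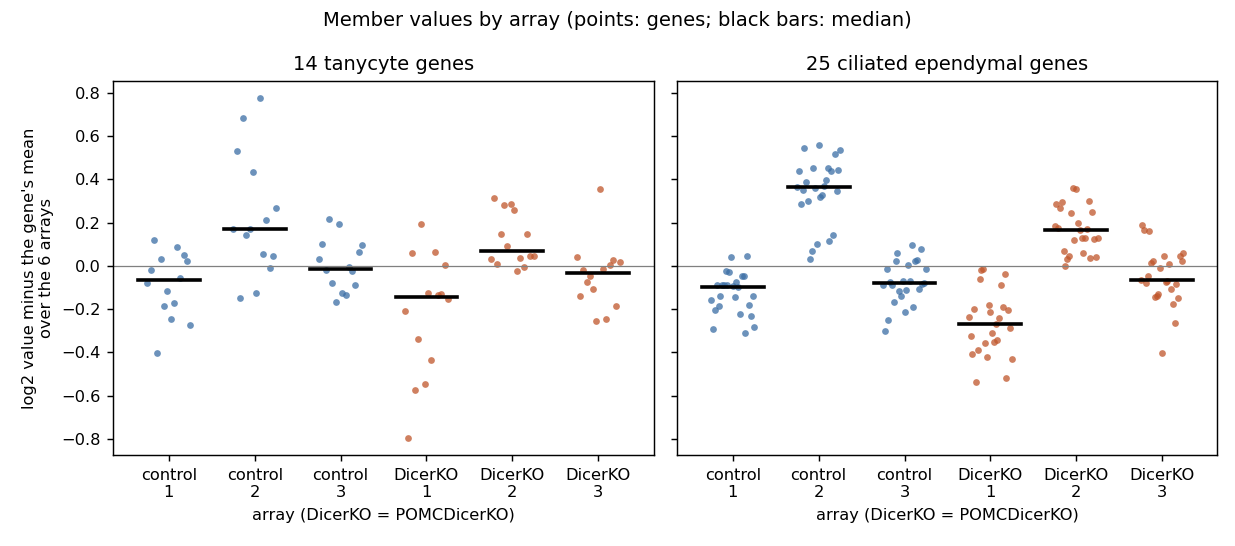
Log2 value of each member's main probe set minus its mean over the 6 arrays (vertical axis), by array (horizontal axis; blue control, orange POMCDicerKO), for the 14 tanycyte genes (left) and 25 ciliated ependymal genes (right); black bars are medians. The ciliated genes stand highest on control 2 (median 0.36) and lowest on POMCDicerKO 1 (median -0.27), and POMCDicerKO 2 (median 0.17) lies above the other 2 controls.

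The ciliated genes varied together from array to array, and that variation ran inside both groups. Relative to each gene's mean over the 6 arrays, their median stood at -0.10, 0.36 and -0.08 on controls 1 to 3 and at -0.27, 0.17 and -0.07 on POMCDicerKO 1 to 3. Control 2 was the highest control for 25 of 25 genes, against 41.4% of all genes, and the highest of all 6 arrays for 23 of 25, against 25.4% (28.5% of genes with a mean of at least 6). The exceptions were Pltp and Rfx3, which were highest on POMCDicerKO 2. POMCDicerKO 2 was the highest POMCDicerKO array for 23 of 25 genes, against 30.7% of all genes. POMCDicerKO 1 was the lowest of the 6 arrays for 16 of 25, against 17.0% (16.7% of genes with a mean of at least 6). The spread inside the groups was wide: the median residual SD of the ciliated genes was 0.267, against 0.099 over all genes, and their median range over the 6 arrays was 0.689, against 0.26. Taken per array, the median over the ciliated genes had a SD within groups of 0.239, and the median difference of -0.106 was smaller than that. This SD describes single arrays and is not a standard error of the group difference. It includes the high values on array 2 of both groups.

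The direction of the ciliated genes depended on which arrays were used. With all probe sets of a gene averaged, 21 of 25 were lower and the median was -0.055. Without control 2, 19 of 25 ciliated genes were higher and 6 lower in POMCDicerKO, with a median of 0.044. Without POMCDicerKO 1, 12 were higher and 13 lower, with a median of -0.009. Without control 1, 0 were higher and 25 lower, with a median of -0.18, and without POMCDicerKO 2, 24 were lower, with a median of -0.194. With controls 1 and 2 both left out, 13 were higher and 12 lower (median 0.036), with control 3 as the only control. Of the tanycyte genes 10 of 14 were lower without control 2, but the median was then -0.016, and without POMCDicerKO 1 it was -0.026 with 8 lower.

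**Figure D2:**
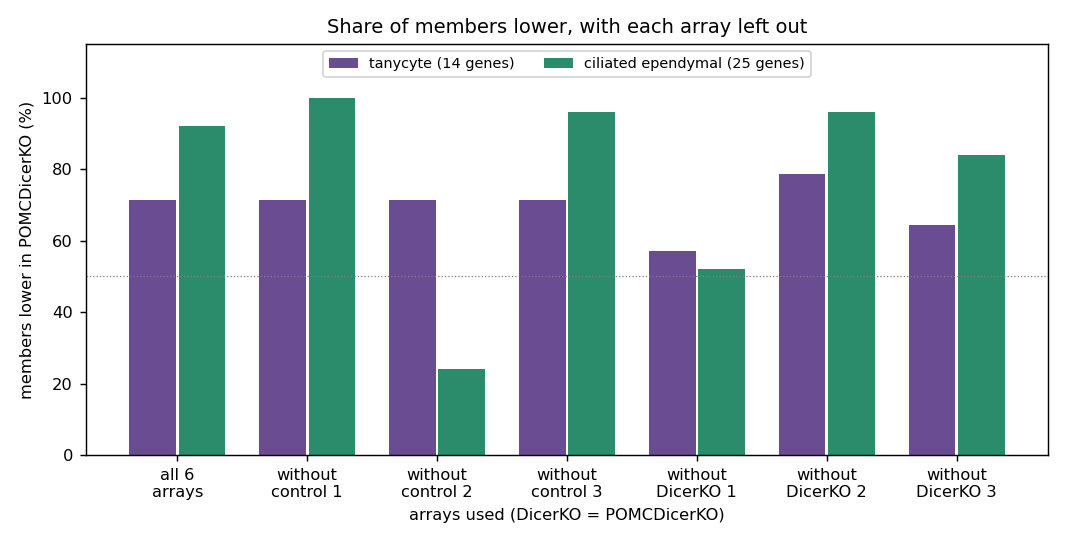
Share of members with a lower mean in POMCDicerKO than in control (vertical axis, percent), with all 6 arrays and with each array left out in turn (horizontal axis), for 14 tanycyte genes (purple) and 25 ciliated ependymal genes (green); the dotted line marks an even split. Without control 2 the ciliated share is 6 of 25, and without POMCDicerKO 1 it is 13 of 25.

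Among the regulators of the ciliated state, Foxj1, the forkhead factor that switches on motile cilia genes, read 6.98, 7.50 and 7.05 in controls and 6.90, 7.32 and 7.07 in POMCDicerKO. Both groups held 1 high array, the second, and they overlapped throughout. The difference was -0.08 with a standard error of 0.16 and a 95% interval from -0.45 to 0.29 (two-sided exact permutation p = 0.7). Rfx2, which acts with Foxj1 at ciliary promoters, read 6.07, 6.57 and 5.93 in controls and 5.88, 6.25 and 6.01 in POMCDicerKO, again highest on the second array of each group. Its difference was -0.14, with an interval from -0.54 to 0.26 (exact permutation p = 0.6). Rfx3, a further ciliogenic RFX factor, differed by -0.06 with a standard error of 0.10. The other Rfx2 and Rfx3 probe sets had means under 6.

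Further markers of ependymal cells overlapped between the groups as well. Ccdc153, a coiled-coil protein, read 8.76, 9.49 and 8.75 in controls and 8.73, 9.34 and 9.24 in POMCDicerKO. Of the 3 high arrays 2 were POMCDicerKO, and the difference was 0.10 with an interval from -0.44 to 0.64 (exact permutation p = 1). Tmem212, a membrane protein of ependyma, read 9.15, 9.64 and 9.34 against 8.95, 9.53 and 9.52, with overlapping groups and a difference of -0.04 (interval -0.47 to 0.38, exact permutation p = 0.8). Rarres2, which encodes the secreted attractant chemerin, read 8.99, 9.43 and 8.83 against 8.88, 9.35 and 9.0. Its group means were both 9.08, and its difference was -0.01 (interval -0.41 to 0.40, exact permutation p = 1). Cd24a, a surface glycoprotein of ependymal cells and of immature neurons, read 10.42, 11 and 10.48 against 10.27, 10.60 and 10.58. Control 2 alone lay above all POMCDicerKO arrays, and the difference was -0.15 (interval -0.53 to 0.23, exact permutation p = 0.6). The other 2 Cd24a probe sets gave -0.21 and -0.23.

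Genes of the ciliary motor and its scaffold mostly followed the same order of arrays. Enkur, a protein of the ciliary microtubule lumen, had the lowest difference among the ciliated members. It read 8.13, 8.83 and 8.39 in controls and 7.79, 8.56 and 8.16 in POMCDicerKO, so that POMCDicerKO 2 stood above controls 1 and 3. The difference was -0.28 with a standard error of 0.23 and an interval from -0.81 to 0.24 (exact permutation p = 0.5). It was -0.09 without control 2 or without POMCDicerKO 1, and -0.48 without POMCDicerKO 2. Rsph4a, of the radial spoke head, read 7.84, 8.24 and 7.92 against 7.56, 8.08 and 7.84, a difference of -0.17 (interval -0.52 to 0.18, exact permutation p = 0.4). Rsph1, a further radial spoke protein, was at -0.04. Ccdc39 and Ccdc40 together form the ruler that spaces inner dynein arms and radial spokes along the axoneme. Ccdc40 read 6.33, 6.95 and 6.65 against 6.21, 6.61 and 6.56, a difference of -0.19 (interval -0.58 to 0.20, exact permutation p = 0.4). Ccdc39 read 8.18, 8.65 and 8.21 against 8.01, 8.41 and 8.21, a difference of -0.14 (interval -0.48 to 0.21, exact permutation p = 0.6). Both partners had control 2 highest and POMCDicerKO 1 lowest, as most ciliated members did, and their groups overlapped.

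Spef2, a protein of the central pair, read 6.22, 6.76 and 6.19 against 5.95, 6.55 and 6.17, a difference of -0.17 (interval -0.62 to 0.29, exact permutation p = 0.5). Hydin, also of the central pair, was at -0.03. The remaining members of this group lay between -0.19 and -0.02. Dynein components were at -0.19 (Dynlrb2, a light chain) and -0.16 (Dnali1, an inner arm light chain). Tekt1, a filament protein of the doublet microtubules, was at -0.13, the adenylate kinase Ak7 at -0.11, the kinesin Kif9 at -0.11, Mlf1 at -0.17 and Iqca at -0.02. Mlf1 was 1 of 3 members of the ciliated group with its lowest value on POMCDicerKO 3 (6.86). Tppp3, a tubulin polymerisation protein, was at -0.06, and the phospholipid transfer protein Pltp at -0.05. The groups overlapped for each of them.

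Spag6 and Spag17, of the central pair, could not be followed with these probe sets. Spag17 read 3.93, 4.02 and 4.01 against 3.94, 4.0 and 3.81, and Spag6 between 3.38 and 3.50, both close to the lower end of the scale at 3.05, where differences are compressed. The 2 Spag17 probe sets differed in sign (-0.07 and 0.02). The related gene Spag6l, chosen after its values were seen, read 7.50, 7.85 and 7.36 against 7.28, 7.67 and 7.19, with the second array of each group highest. Its difference was -0.19 with a standard error of 0.16.

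**Figure D3:**
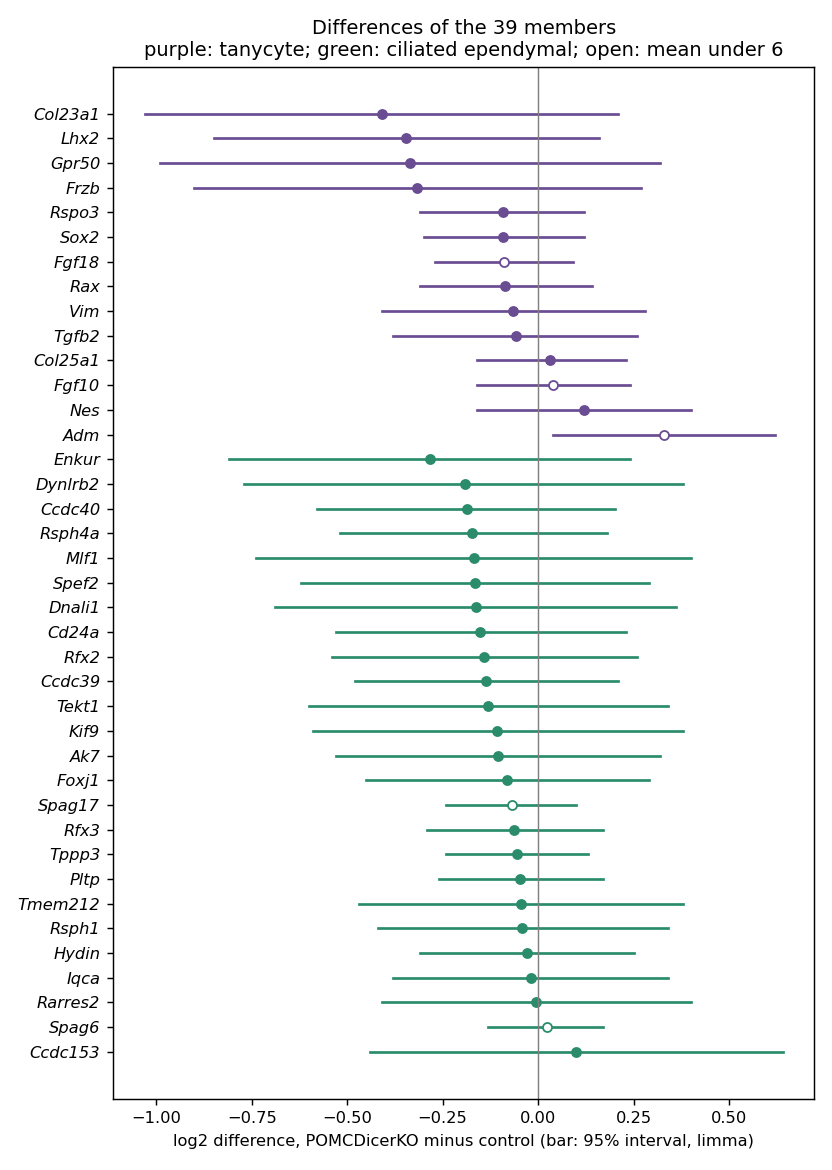
Log2 difference, POMCDicerKO minus control (horizontal axis), with limma's 95% interval (bars), for the main probe set of each member (vertical axis); purple marks tanycyte genes, green ciliated ependymal genes, and open circles genes with a mean under 6. Among the 39, the interval of Adm alone (0.04 to 0.62) leaves out 0, and it is not adjusted for the number of genes tested.

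Among the tanycyte genes, Col23a1, Gpr50, Lhx2 and Frzb had the largest negative differences. Col23a1, a transmembrane collagen and tanycyte marker, read 8.03, 8.58 and 8.15 in controls and 7.25, 8.36 and 7.91 in POMCDicerKO. POMCDicerKO 1 was lowest by a wide gap, whereas POMCDicerKO 2 stood above controls 1 and 3. The difference was -0.41 with a standard error of 0.27, or 1.33-fold, and an interval from -1.03 to 0.21 (exact permutation p = 0.4). It was -0.12 without POMCDicerKO 1 and -0.67 without POMCDicerKO 2. The other Col23a1 probe sets gave -0.20 and -0.47. Gpr50, an orphan receptor related to the melatonin receptors, read 8.05, 9.14 and 8.67 against 7.88, 8.6 and 8.38. Controls 2 and 3 lay above all POMCDicerKO arrays and control 1 below 2 of them, and the difference was -0.34 (interval -0.99 to 0.32, exact permutation p = 0.4). It was -0.62 without control 1, -0.075 without control 2 and -0.135 without POMCDicerKO 1.

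Lhx2, a LIM homeobox factor needed for tanycyte identity, read 6.36, 6.91 and 6.67 in controls and 5.93, 6.76 and 6.22 in POMCDicerKO, where array 2 alone was within the control range. The difference was -0.34 with a standard error of 0.22 (interval -0.85 to 0.16, exact permutation p = 0.3), and it stayed between -0.57 and -0.16 with each array left out. Frzb, a secreted Wnt inhibitor, read 6.41, 7.36 and 6.45 against 6.15, 6.56 and 6.57. It stood high on control 2 alone, and its difference of -0.32 (interval -0.90 to 0.27, exact permutation p = 0.6) was -0.006 without that array. Without control 1 the Frzb difference was -0.48. Rax, the homeobox factor that defines tanycytes, read 6.10, 6.35 and 6.21 against 5.97, 6.21 and 6.22. Its level was only just above 6 on most arrays, and its difference was -0.09 (interval -0.31 to 0.14, exact permutation p = 0.5).

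The intermediate filament genes differed little. They are not particular to tanycytes, which share them with other cells, among them neural progenitors, astrocytes in part and vessel cells. Vim read 10.17, 10.28 and 10.06 in controls and 9.80, 10.42 and 10.09 in POMCDicerKO. Its highest and lowest arrays were both POMCDicerKO, and the difference was -0.07 (interval -0.41 to 0.28, exact permutation p = 0.8). The other Vim probe sets both gave -0.09. The difference of Nes was 0.12 (standard error 0.12), and it was highest on POMCDicerKO 1, where most tanycyte genes were lowest. The stem cell factor Sox2 was at -0.09.

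Secreted signals were mixed. Adm, the precursor of the vasodilator adrenomedullin, was the 1 member with an unadjusted p under 0.05. It read 5.62, 5.74 and 5.74 in controls and 5.74, 6.12 and 6.22 in POMCDicerKO, so that POMCDicerKO arrays 2 and 3 were high and array 1 lay within the control range. The difference was 0.33 with a standard error of 0.12, or 1.26-fold (limma p = 0.0311, adjusted p = 1; exact permutation p = 0.2), at a mean under 6. Its other probe set gave 0.15. Adm is also made by vessel cells. Tgfb2 was at -0.06 on its main probe set, -0.16 and -0.01 on 2 others and 0.15 on a further one. Rspo3, a Wnt enhancer, and Fgf18 were both at -0.09, and the growth factor Fgf10 at 0.04 with a mean of 4.23. Col25a1, a collagen also expressed by neurons, was at 0.03 and had its lowest value on control 2, unlike Col23a1. The Fgf10 and Fgf18 means were both under 6.

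The medians of the tanycyte genes were also highest on control 2, next on POMCDicerKO 2 and lowest on POMCDicerKO 1, with a narrower range than those of the ciliated genes. These medians relative to the mean over arrays were -0.07, 0.17 and -0.01 in controls and -0.14, 0.07 and -0.03 in POMCDicerKO. Control 2 was the highest of the 6 arrays for 7 of 14 genes (Rax, Col23a1, Gpr50, Lhx2, Frzb, Sox2 and Tgfb2), against 25.4% of all genes. POMCDicerKO 1 was the lowest for 8 of 14 (Rax, Col23a1, Gpr50, Vim, Lhx2, Frzb, Sox2 and Fgf10), against 17.0%. Their median residual SD was 0.183. Of the 13 further member probe sets with a mean of at least 6, over both cell types, 9 had the sign of the gene's main probe set. The 4 others were probe sets of Col25a1 (-0.03), Tgfb2 (0.15), Pltp (0.06) and Iqca (0.05).

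Other genes of the same cells, listed by cell type and function, were read beside the members. Of 37 other motile cilia genes 34 were measured. They were lower in 31 and higher in 3, with a median of -0.106 over all 6 arrays, and higher in 18 and lower in 16 without control 2 (median 0.005). Without POMCDicerKO 1, 20 were lower and 14 higher (median -0.006). Control 2 was their highest array for 20 of 34, against 25.4% of all genes, and POMCDicerKO 1 their lowest for 22 of 34, against 17.0%. Those with the smallest p were Mns1 at -0.29, Lrrc6, needed to assemble dynein arms, at -0.21 and Iqcg at -0.35. None passed the threshold. An unadjusted p under 0.05 was found in 0 of 34, against 2.41% of all genes, and groups apart in 0 of 34, against 6.44%.

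In other tanycyte genes the lowest array was most often POMCDicerKO 3, as it was over all genes. Of 12 listed, 10 were measured, and 9 of them were lower, with a median of -0.239. Of these, 9 of 10 were lower without control 2 (median -0.202) and 10 of 10 without POMCDicerKO 1 (median -0.27). Without POMCDicerKO 3 the count was 7 of 10 (median -0.115), and without POMCDicerKO 2 it was 9 of 10 (median -0.37). POMCDicerKO 3 was the lowest array for 5 of 10 and POMCDicerKO 1 for 2 of 10, against 4291 and 3084 of all 18193 genes. Among the 11742 genes with a mean of at least 6, as 9 of these 10 had, the counts were 3576 and 1958. None passed the threshold (adjusted p = 1 for each by limma), and 2 had an unadjusted p under 0.05, against 2.41% of all genes. Cd59a, a complement regulator, read 8.95, 8.67 and 8.70 in controls and 8.18, 8.02 and 8.62 in POMCDicerKO, the 1 gene of the 10 whose groups did not overlap, against 6.44% of all genes. The gap between the groups was small, since POMCDicerKO 3 lay just below control 2. Its second probe set gave -0.48. The difference of the main one was -0.50 with a standard error of 0.15 (exact permutation p = 0.1, the smallest that 3 against 3 can give). Fndc3c1 read 6.31, 6.54 and 5.63 against 5.64, 5.66 and 5.34, with control 3 among the POMCDicerKO arrays. Its difference was -0.61 (exact permutation p = 0.3), at a mean of 5.85. It stood high on controls 1 and 2 alone, as did the meningeal genes, whose part in it was not tested. Necab2 was at -0.16. Crym, a thyroid hormone binding protein of tanycytes, read 8.35, 8.61 and 8.30 against 7.41, 8.57 and 7.87, with POMCDicerKO 1 lowest, and was at -0.47. Dio2, the enzyme that activates thyroid hormone, was at -0.25, with 6.93 on POMCDicerKO 3 and 7.67 to 7.99 elsewhere. The other Dio2 probe sets, with means under 6, gave -0.05 and 0.03. Crym and Dio2 are named in addition to the 3 genes with the smallest p (Cd59a, Fndc3c1 and Necab2). The rest of the list was Scn7a at -0.28, Fabp7 at -0.23, Ppp1r1b at -0.12, Vcan at -0.06 and Trhde at 0.01.

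**Figure D4:**
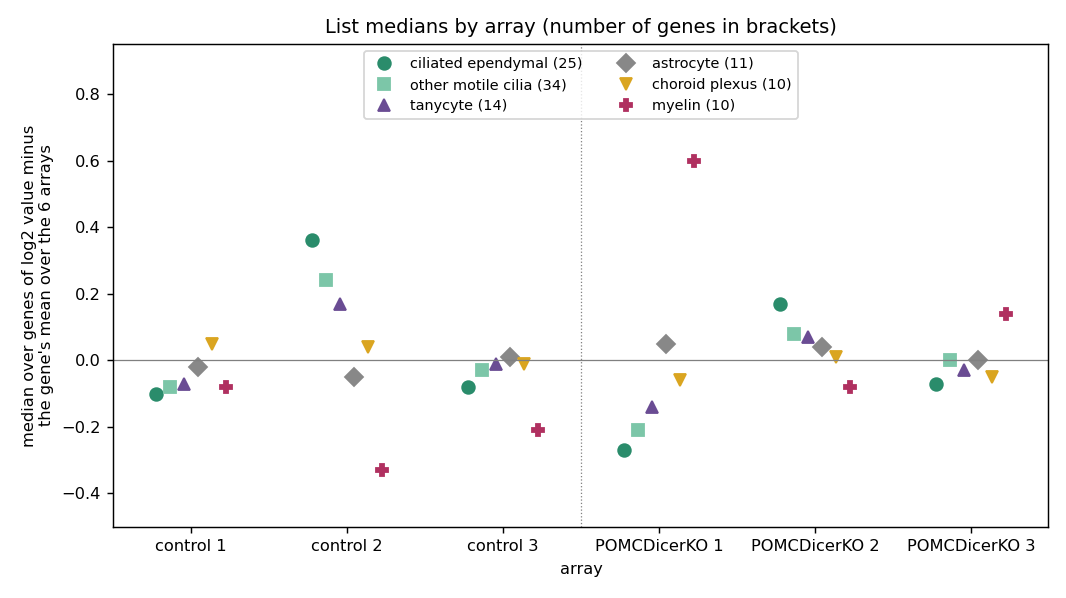
Median over genes of the log2 value minus the gene's mean over the 6 arrays (vertical axis), by array (horizontal axis), for the ciliated ependymal, other motile cilia, tanycyte, astrocyte, choroid plexus and myelin lists; points are medians and the dotted line parts the groups. Ciliated genes reach 0.36 on control 2 and -0.27 on POMCDicerKO 1, where myelin genes stand at -0.33 and 0.60, and astrocyte genes stay between -0.05 and 0.05.

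Markers of other cells were read on the same arrays to show what moved with the ventricular genes. The 11 astrocyte genes, a glial type related to tanycytes, had medians between -0.05 and 0.05 on every array, and a mean log2 level of 11.15 to 11.16 in controls and 11.13 to 11.21 in POMCDicerKO. Control 2 was the highest array for 3 of 11, against 25.4% of all genes. The 10 measured choroid plexus genes, from the other epithelium of the ventricles, had medians between -0.06 and 0.05. Only 5 of the 10 had a mean of at least 6, and differences are compressed toward the lower end of the scale. The mean log2 level of the 10 was 5.97 to 6.10 in controls and 5.68 to 6.08 in POMCDicerKO. Ttr, their defining transcript, read 10.99, 9.10 and 9.87 in controls and 10.22, 11.41 and 7.20 in POMCDicerKO. Control 2 was the highest array for 5 of these 10 genes (Folr1, Kl, Kcnj13, Sostdc1 and Cldn2). Ttr was lowest among the controls on control 2 and highest among the POMCDicerKO arrays on array 2. The 6 neuron genes had medians between -0.03 and 0.07.

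Myelin genes stood the other way from the ciliated genes on the arrays that set them apart. Over 10 genes their median was lowest on control 2 (-0.33) and highest on POMCDicerKO 1 (0.60), where 10 of 10 genes had their highest value. Their mean log2 level was 10.33 to 10.58 in controls and 10.58 to 11.24 in POMCDicerKO. Some of the 9 genes listed for hypothalamic neurons also differed between these arrays. Hcrt, the orexin precursor of the lateral hypothalamus, read 7.78 on control 2 and 10.72 on POMCDicerKO 1, its lowest and highest values, and Npy, of arcuate neurons, read 12.32 on control 2 and 10.38 on POMCDicerKO 1, its highest and lowest. Hcrt was chosen after its values were seen. Of the 9 genes, 4 were lowest and 2 highest on control 2, and 4 were lowest and 3 highest on POMCDicerKO 1. Some differed little, such as Fezf1 (7.38 on control 2, 7.51 on POMCDicerKO 1) and Nr5a1 (7.6 and 7.3). Of the other genes that lead each list by p, Ermn and Mal of myelin were at 0.61 and 0.57. Those of astrocytes went both ways, with S100b at 0.14, Gjb6 at 0.12 and Aldh1l1 at -0.13. Those of choroid plexus did too, with Kl at -0.34, Kcnj13 at -0.39 and Slc4a5 at 0.08. The second Kl probe set gave 0.10. Ptgds and Dcn of the meninges were at -2.64 and -1.33, and Gh and Cga of the pituitary at 1.64 and -2.37, with 8.92 and 8.34 for Gh on POMCDicerKO 1 and 3 and 5.89 to 6.24 elsewhere. The part of these markers in the members' order of arrays was not tested. No marker sat at 0, since RMA values on the log2 scale have no zero.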

How the data were processed

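Arcuate RNA of 3 control and 3 POMCDicerKO samples was hybridised to Affymetrix Mouse Genome 430 2.0 arrays. The deposited values were log2 expression per probe set, made with RMA and the affy package per the submitters' processing notes (no version is named). The RMA method removes background and equalises arrays by quantiles, so a difference shared by most transcripts would be lost. There were 0 unused sample columns and 0 duplicate arrays.

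Of the probe sets, 45037 were tested and 64 control ones left out. The platform annotation gave 34945 of them 1 symbol, 932 several, and did not list 9160; 34741 of the single-symbol ones were found by Entrez ID in RefSeq's GRCm38.p6 table, whose symbol was used. Some listed genes were not analysed here.

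The groups were compared with limma 3.58.1 in R 4.3.3 (lmFit, eBayes), with Benjamini-Hochberg adjustment over all probe sets at 0.05. For single probe sets an exact permutation test (two-sided) is given, whose smallest p at 3 against 3 is 0.1. Scripts were tested on simulated data. The members and lists were chosen with earlier results of these data known. The naming rule took 8 defining markers and the 5 tanycyte and 8 ciliated members with the smallest p for array-by-array values, and the 3 smallest p per other list, of which most are named. Alternatives were median centring, a further quantile normalisation, a minimum mean of 6, a trended robust prior, a replicate block, averaging a gene's probe sets, and leaving out each array. Leaving out controls 1 and 2 together was chosen after seeing the data. The number of arrays limits the precision, and the labels give no batch.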

Additional observations from a re-analysis of the deposited data

How the results depend on the processing

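No member probe set passed the adjusted threshold under any alternative that was run. Over all probe sets the count of 0 was 1 with a trended robust prior (Rps9), from 0 to 2 with each array left out (Grik1 without control 1, Ogn and Slc6a20a without control 3), and 1 without controls 1 and 2 (a probe set with no gene name here), where the lone control 3 is assumed to vary like the POMCDicerKO arrays. At an unadjusted p under 0.05 the 45037 probe sets gave 1098. The median difference of the ciliated members ran from -0.194 to 0.044 with each array left out, that of the tanycyte members from -0.129 to -0.016, that of other motile cilia genes from -0.178 to 0.005 and that of other tanycyte genes from -0.37 to -0.115. With all probe sets of a gene averaged, which takes in further ones with a mean under 6, the ciliated median was -0.055 in place of -0.106. The SD of 0.239 between arrays does not measure such a move, since the arrays are the same. Median centring, a further quantile normalisation and the minimum mean moved none of the 4 medians by more than 0.01. Of 19 members described array by array, 9 turned sign with some array left out: Vim from -0.225 to 0.087, Foxj1 from -0.194 to 0.079, Ccdc153 from -0.025 to 0.343, Tmem212 from -0.159 to 0.149, Rarres2 from -0.142 to 0.166, Cd24a from -0.259 to 0.033, Ccdc39 from -0.236 to 0.015, Spef2 from -0.329 to 0.022 and Rfx2 from -0.271 to 0.049. Leaving out control 2 turned Foxj1, Tmem212, Rarres2, Cd24a, Ccdc39, Spef2 and Rfx2, and leaving out POMCDicerKO 1 turned Vim, Foxj1, Tmem212 and Rarres2. Rarres2 also turned without POMCDicerKO 3, and Ccdc153 without control 1, control 3 or POMCDicerKO 2. The other 10 kept their sign in those fits, with wide ranges for Rax (-0.148 to -0.006), Gpr50 (-0.621 to -0.075), Rsph4a (-0.301 to -0.041) and Ccdc40 (-0.343 to -0.034). Without controls 1 and 2, Vim was at 0.043, Foxj1 at 0.044, Rarres2 at 0.248, Spef2 at 0.036 and Rfx2 at 0.118. Rarres2 was at 0.005 after a further quantile normalisation. The cause of these turns was not tested.

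The main fit did not pair the samples by replicate number. Deviations of same-numbered arrays from their group means correlated at 0.128, 0.079 and 0.12. Each control correlated best with its own number, which is a hint from the data and not the design. With the replicate number as a block, 0 probe sets passed and 1396 had an unadjusted p under 0.05 (3.1%), among them 8 of 70 member probe sets (11.4%), from Col23a1, Gpr50, Lhx2, Adm, Mlf1, Enkur and Cd24a, each with an adjusted p of 1 by limma. With 3 arrays a group and no block, differences as small as those of most members were not detectable against their spread.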
